A study of Mus musculus with 8 samples.

Results

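Transcripts of 9 genes that mark monocytes entering inflamed tissue were followed in mouse microglia. The genes, Ly6c2, Ccr2, Plac8, Fn1, Vcan, F10, Itga4, Cd44 and Napsa, were chosen by symbol as a list of monocyte markers, and each was matched to 1 probe set of the array, out of 30743 named genes. Of the 9, 7 were bright enough to be tested, since they lay above the median of the named probe sets on at least 1 array, and Vcan and Napsa lay below it on all 8 arrays. Levels are given as log2(intensity + 16), a scale that understates the change of dim genes, and they are compared between arrays for 1 gene at a time.

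The 8 arrays crossed 2 genotypes with 4 states, with 1 array per group, and all mice were of the C57Black/6J strain. The icKO mice carried a conditional knockout of connexin 47 (Cx47), a gap junction protein, directed at oligodendroglia, and their control is labelled FL or F/F and in 1 case wt. Mice were naive or had experimental autoimmune encephalomyelitis (EAE), in which immune cells attack myelin as in multiple sclerosis. The EAE arrays were untreated EAE, EAE treated with iguratimod (IGU, an anti-inflammatory antirheumatic drug) and EAE with the mark p50, whose meaning the labels do not give. The Cre driver, the age and sex of the mice, the number of animals behind an array and the way microglia were isolated are not given in the sources used here, and the deletion is aimed at another cell type than the one profiled. The p50 arrays carry differently worded titles and stood apart in sex-linked genes. Xist was at 16.64 in icKO and 15.90 in control on them, against 7.71 to 8.30 on the other arrays. The Y-linked gene Eif2s3y was at 7.40 in icKO and 7.29 in control on them, against 9.44 to 10.17 on the others. By these genes the p50 arrays hold female RNA and the others male RNA. Each comparison with p50 is thus also female against male, and sex and p50 cannot be told apart. The defining microglial genes P2ry12, Tmem119 and Sall1 lay above the median of the named probe sets on every array. In such bulk samples fewer cells of a type and less RNA per cell cannot be told apart.

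Classical monocytes are made in the bone marrow and carry Ly6C, a small protein anchored to the cell surface, encoded by Ly6c1 and Ly6c2. They leave the marrow and enter tissue with the help of the chemokine receptor CCR2, which follows the ligands CCL2, CCL7 and CCL12, and they cross vessel walls with the help of the integrin alpha4 chain (Itga4) and the hyaluronan receptor CD44. In EAE they enter the central nervous system and become macrophages, while resting microglia carry little or no Ly6C or CCR2. Several of the 9 genes are used by other cells as well: oligodendrocyte precursors and fibroblasts make versican (Vcan), fibroblasts and macrophages make fibronectin (Fn1), neutrophils and lymphocytes make Plac8 and Cd44, and T cells carry alpha4 integrin.

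RefSeq promoter windows of 300 bases (build GRCm38.p6, 250 bases before a gene's start and 50 after it) were held for 7 of the 9 genes, with Fn1 and Napsa not matched. Those of Ly6c2, its paralog Ly6c1, Plac8 and Ccr2 are shown because Ly6c2 had the largest change of the 9 genes in EAE, Ly6c1 a much smaller one, and Plac8 and Ccr2 the highest correlation with Ly6c2 over all 8 arrays. Capitals mark matches to GAGGAA, the core of PU.1 sites, on either strand (TTCCTC on the other). The windows are chr15:75111922-75112221 (minus strand), chr15:75048788-75049087 (minus strand), chr5:100572156-100572455 (minus strand) and chr9:124101933-124102232 (plus strand).
Ly6c2: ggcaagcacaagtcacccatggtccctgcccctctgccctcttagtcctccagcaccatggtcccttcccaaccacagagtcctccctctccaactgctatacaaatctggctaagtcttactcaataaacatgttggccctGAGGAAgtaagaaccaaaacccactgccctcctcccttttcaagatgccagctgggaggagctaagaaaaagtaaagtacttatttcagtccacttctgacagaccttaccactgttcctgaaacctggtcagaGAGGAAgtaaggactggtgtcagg
Ly6c1: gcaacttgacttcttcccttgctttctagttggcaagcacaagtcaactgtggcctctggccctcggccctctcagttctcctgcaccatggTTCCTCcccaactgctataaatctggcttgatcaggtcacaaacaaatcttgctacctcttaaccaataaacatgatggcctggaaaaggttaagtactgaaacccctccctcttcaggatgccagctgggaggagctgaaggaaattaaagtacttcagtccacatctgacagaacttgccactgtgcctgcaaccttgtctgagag
Plac8: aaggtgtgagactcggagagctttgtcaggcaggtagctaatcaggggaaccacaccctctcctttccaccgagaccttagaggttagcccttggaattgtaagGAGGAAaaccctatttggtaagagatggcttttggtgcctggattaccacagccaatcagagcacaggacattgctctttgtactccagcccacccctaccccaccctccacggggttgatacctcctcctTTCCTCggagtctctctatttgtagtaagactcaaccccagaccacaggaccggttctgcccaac
Ccr2: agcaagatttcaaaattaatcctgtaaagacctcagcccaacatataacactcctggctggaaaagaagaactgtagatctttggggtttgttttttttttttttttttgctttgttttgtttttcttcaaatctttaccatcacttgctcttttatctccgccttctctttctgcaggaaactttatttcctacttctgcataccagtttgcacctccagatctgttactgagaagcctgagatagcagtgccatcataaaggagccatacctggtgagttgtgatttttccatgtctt

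The Ly6c2 window held GAGGAA at bases 143 and 277, the Plac8 window held it at bases 105 and 236, and the shown Ly6c1 window held 1 match, at base 93. A second RefSeq window of Ly6c1, at another start, held 2, at bases 124 and 264, so the number of matches depends on the start taken. No match was found in the Ccr2 window. Among the members GAGGAA also occurred in the Cd44 window, and a further 300-base Plac8 window, at another start of the gene, held TTGCNNAA, a part of C/EBP sites, at base 239. The interferon-stimulated response element and TTCNNNGAA (STAT site), searched on both strands, were found in none of the members' windows. Of all 32851 promoter windows 28.3% held GAGGAA, 10.8% TTGCNNAA, 3.44% the interferon-stimulated response element and 8.3% TTCNNNGAA, and matches of different motifs can overlap. The shown windows of Ly6c2 and Ly6c1 were identical at 208 of 334 aligned columns (62.3%), of which 68 were gaps. The opening bases of the Ly6c2 window lie inside the Ly6c1 window, so the identity depends on where the windows were cut. These matches describe the letters only.

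Ly6c2 was brightest in EAE. Its level was 13.96 in icKO and 14.27 in control on the EAE arrays, against 9.57 in icKO and 10.02 in control on the naive arrays. The EAE arrays treated with iguratimod lay between, at 12.50 in icKO and 11.28 in control, and the p50 arrays lay at 9.88 in icKO and 9.54 in control, the control value lying just under the naive arrays. The EAE arrays and the naive arrays did not overlap, and neither did the EAE arrays and any other state.

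Ly6c2 rose in EAE by 4.32 ± 0.40 (SE) log2 units against naive, a 20.0-fold change that was the 12th largest increase of 18244 genes tested (limma adjusted p = 0.0193). The difference was 4.39 in icKO and 4.25 in control. In the p50 state it fell by 4.41 ± 0.40 against EAE (limma adjusted p = 0.00833), with -4.08 in icKO and -4.73 in control. It was the only one of the 9 genes called by limma in any comparison, where EAE against naive called 3.33% of the genes tested higher and 0.384% lower, and p50 against EAE called 1.62% lower. With any of the 4 naive or EAE arrays left out the rise was no longer called, at 3.89 to 4.75 log2 units with adjusted p between 0.0798 and 0.124, and without both p50 arrays it was 4.32.

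The probe sets of Ly6c2 and Ly6c1 may share sequence, since the genes are close paralogs, so both levels are uncertain to that extent. Ly6c1, which vascular endothelium also carries, was at 11.18 in icKO and 11.14 in control in EAE, against 9.85 in icKO and 10.35 in control in the naive state. It rose by 1.06 ± 0.19 against naive (limma adjusted p = 0.0444) and fell by 1.35 ± 0.19 in p50 against EAE (limma adjusted p = 0.0305). Of the 10 measured relatives in the Ly6 gene cluster on chromosome 15, 6 were tested, and Ly6c1 was the 1 called in each of these comparisons. Ly6i gave 1.20 ± 0.31 in EAE against naive (limma adjusted p = 0.107), and the others had smaller differences. Ly6g, shown because it marks neutrophils, was at 9.14 in icKO and 10.52 in control in EAE, against 9.33 in icKO and 10.01 in control in the naive state. Of the defining endothelial genes, Cldn5 and Cdh5 lay below the median of the named probe sets on all arrays. Pecam1, also a defining gene, lay above it on 1 array, icKO naive, at 8.31.

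**Figure D1:**
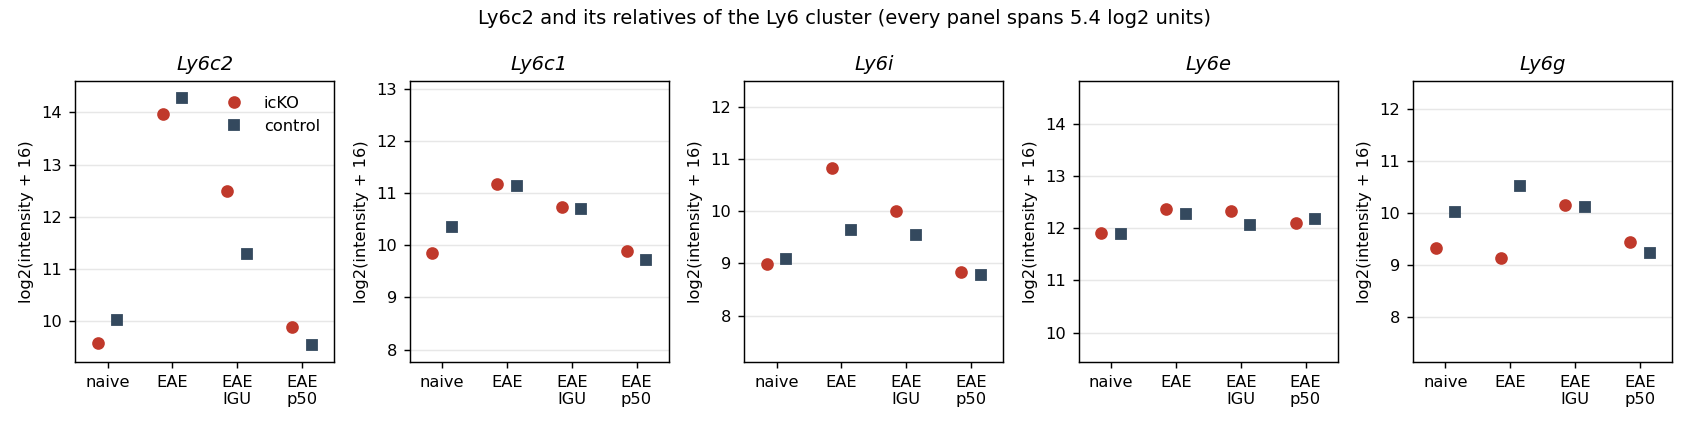
Levels of Ly6c2 and 4 relatives of the Ly6 cluster (log2(intensity + 16), 1 array per point, red circles icKO, dark squares control, states on the x axis). Ly6c2 covers 4.73 log2 units over the 8 arrays, with the EAE arrays at 13.96 and 14.27, while Ly6c1 in EAE lies at 11.18 and 11.14.

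Ccr2, the receptor by which classical monocytes leave the marrow and follow CCL2, was brightest in EAE. It lay at 9.91 in icKO and 9.54 in control in EAE, against 8.06 in icKO and 8.73 in control in the naive state. Under iguratimod it was at 9.20 in icKO and 8.31 in control, and in p50 at 8.44 in icKO and 8.27 in control. The 2 EAE arrays lay above all others, and the control array under iguratimod lay below the control naive array. The fitted difference was 1.33 ± 0.35 for EAE against naive (limma adjusted p = 0.110) and -1.37 ± 0.35 for p50 against EAE (limma adjusted p = 0.104), neither of which passed.

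The other genes around CCR2 were its ligands and the chemokine receptor genes of chromosome 9, of which 11 were measured and 8 tested. In EAE against naive limma called 2 of the 8 higher and none lower, where 3.33% of all genes tested were called higher. They were the ligand genes Ccl2, at 2.93 ± 0.52 (limma adjusted p = 0.0441), and Ccl12, at 2.30 ± 0.33 (limma adjusted p = 0.0300). Ccl2 lay at 15.42 in icKO and 12.59 in control in EAE, against 11.47 in icKO and 10.67 in control in the naive state. Ccl7 gave 1.29, Ccl8 1.05 and Ccr1, a receptor shared by monocytes and neutrophils, gave 0.97 ± 0.45 (limma adjusted p = 0.315), which was 0.12 in icKO and 1.82 in control. The remaining receptor genes had differences of -0.33 to 0.12.

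Plac8, a small cysteine-rich protein abundant in Ly6C-high monocytes, differed in its order of arrays. It lay at 9.33 in icKO and 10.08 in control in EAE, against 7.54 in icKO and 8.12 in control in the naive state. Under iguratimod it was at 9.76 in icKO, above the icKO array of untreated EAE, and at 8.58 in control. In p50 it was at 7.93 in icKO and 8.17 in control. The EAE arrays did not overlap the naive or the p50 arrays, but they overlapped those with iguratimod. For EAE against naive Plac8 gave 1.88 ± 0.46 (limma adjusted p = 0.0937), and without both iguratimod arrays the same difference passed (limma adjusted p = 0.0231).

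Fn1 encodes fibronectin, a matrix protein that macrophages secrete and that integrins bind. It lay at 12.05 in icKO and 9.57 in control in EAE, against 8.05 in icKO and 8.27 in control in the naive state. With iguratimod it was at 9.57 in icKO and 8.09 in control, and in p50 at 9.72 in icKO and 9.43 in control. The icKO EAE array stood 2.33 log2 units above the next array, and the p50 arrays lay above both naive arrays. For EAE against naive Fn1 gave 2.64 ± 0.62 (limma adjusted p = 0.0871), with 3.997 in icKO and 1.29 in control.

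Vcan encodes versican, a matrix proteoglycan that binds hyaluronan, and was dim on all arrays. It lay at 7.63 in icKO and 7.55 in control in EAE, against 7.34 in icKO and 7.44 in control in the naive state, and between 7.38 and 7.57 on the other arrays. Its whole range was 0.30 log2 units, between the 17.7th and 30.5th percentiles of the named probe sets, where signal cannot be told from background. Napsa, an aspartic protease of the lysosome, had a range of 0.29, from 7.61 on the control array with iguratimod to 7.91 on the icKO array with iguratimod. In EAE Napsa was at 7.87 in icKO and 7.83 in control, against 7.65 in icKO and 7.74 in control in the naive state. With no filter on dim genes, limma gave EAE against naive differences of 0.20 ± 0.11 for Vcan (adjusted p = 0.457) and 0.16 ± 0.12 for Napsa (adjusted p = 0.595). Of the 4 other aspartic protease genes measured 2 were tested, and neither was called between states or genotypes.

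F10 encodes coagulation factor X, which macrophages as well as liver make. It lay at 8.76 in icKO and 8.49 in control in EAE, against 8.28 in icKO and 8.17 in control in the naive state. With iguratimod it was at 8.43 in icKO and 8.41 in control, and in p50 at 8.21 in icKO and 8.12 in control. The EAE arrays lay above all others, the nearest being icKO with iguratimod. The fit gave 0.40 ± 0.12 for EAE against naive (limma adjusted p = 0.157). Of the 14 other coagulation genes measured 6 were tested, and none of these was called between states or genotypes. The largest EAE difference among the tested was that of the urokinase receptor gene Plaur, at 0.69 ± 0.14 (limma adjusted p = 0.0593).

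Itga4 and Cd44, the adhesion members, had nearly equal differences in EAE. Itga4 lay at 8.62 in icKO and 8.54 in control in EAE, against 8.001 in icKO and 8.11 in control in the naive state, and at 8.56 in icKO and 8.35 in control with iguratimod. Cd44 lay at 9.12 in icKO and 9.06 in control in EAE, against 8.50 in icKO and 8.64 in control in the naive state, and at 8.83 in icKO and 8.68 in control with iguratimod. In p50, Itga4 was at 8.52 in icKO and 8.22 in control and Cd44 at 8.93 in icKO and 8.65 in control. Both EAE arrays lay above both naive arrays for each gene. The differences were 0.52 ± 0.14 for both Itga4 (limma adjusted p = 0.122) and Cd44 (limma adjusted p = 0.127). Among 16 measured partners and ligands of alpha4 integrin, CD44 and fibronectin, 11 were tested. Vcam1 was the 1 gene called in EAE against naive, where 3.33% of all genes tested were called higher. Vcam1, the endothelial ligand of alpha4 integrin, rose by 1.305 ± 0.21 (limma adjusted p = 0.0359). It lay at 9.21 in icKO and 8.71 in control in EAE, against 7.65 in icKO and 7.66 in control in the naive state.

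**Figure D2:**
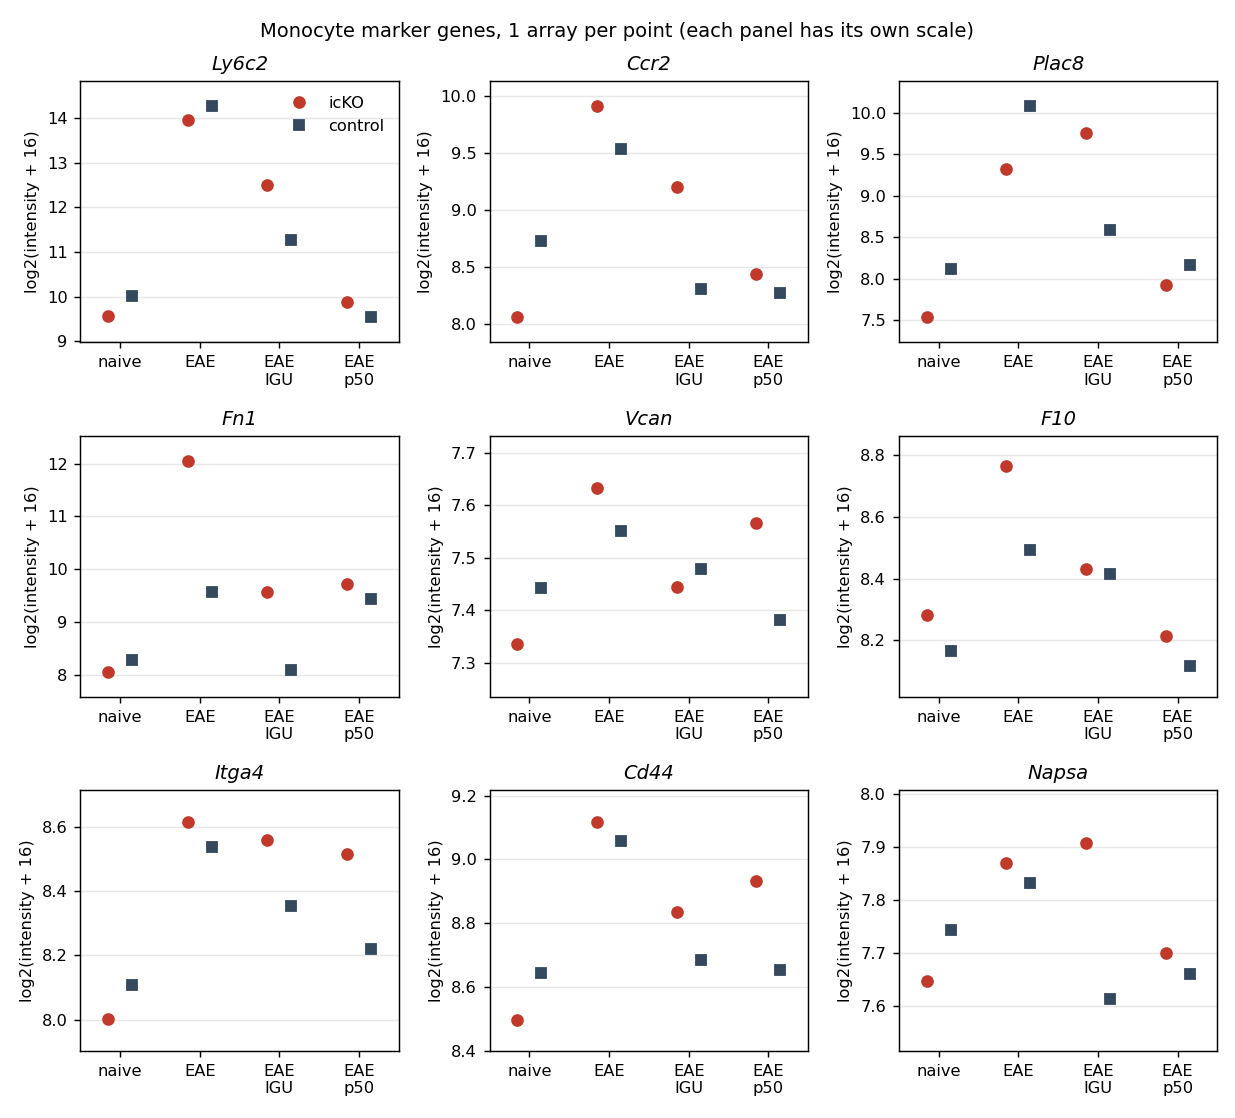
Levels of the 9 monocyte marker genes (log2(intensity + 16), 1 array per point, red circles icKO, dark squares control). For all 9 genes both EAE arrays lie above both naive arrays, whereas Vcan and Napsa move over 0.30 and 0.29 log2 units only.

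Taken as a list, all 9 genes were brighter on both EAE arrays than on both naive arrays, a pattern held by 20.7% of all named genes. Their median difference was 0.52, against -0.05 for all named genes, and it was 0.62 in icKO and 0.43 in control. Called by limma as higher was 1 of the 7 tested (Ly6c2), against 3.33% of the genes tested. All 7 had an unadjusted p under the threshold of 0.05, as did 19.2% of the genes tested. The 4 largest differences, those of Ly6c2, Fn1, Plac8 and Ccr2, lay between 1.33 and 4.32, and the other members were at or below 0.52. The icKO EAE array held the highest level for 6 of the 9 genes, and the icKO naive array the lowest for 6.

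Iguratimod-treated EAE was compared with untreated EAE. All 9 genes had a negative difference on average over the genotypes, and for 5 of them both iguratimod arrays lay below both EAE arrays, a pattern held by 14% of all named genes. Ly6c2 gave -2.23 ± 0.40 (limma adjusted p = 0.508), with -1.47 in icKO and -2.99 in control. Fn1 gave -1.98 ± 0.62 (limma adjusted p = 0.534) and Ccr2 gave -0.97 ± 0.35 (limma adjusted p = 0.558). F10, Itga4 and Cd44 gave -0.21, -0.12 and -0.33. None of the 7 passed, nor did any of the 18244 genes (0%), and 3 of the 7 had an unadjusted p under 0.05, against 8.51% of the genes tested. The median over the 9 genes was -0.33, against 0.03 for all named genes.

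Against naive, iguratimod-treated EAE had all 9 genes at a positive difference on average, with both arrays above both naive arrays for 6 of them, against 17.6% of all named genes. Ly6c2 gave 2.09 ± 0.40 (limma adjusted p = 0.187), with 2.92 in icKO and 1.26 in control, and Plac8 gave 1.34 ± 0.46 (limma adjusted p = 0.373), with 2.22 in icKO and 0.47 in control. Limma called none of the members and 1 gene in all, higher (0.00548%), and 3 of the 7 had an unadjusted p under 0.05, as did 10.9% of the genes tested. In icKO all 9 genes lay above their naive level, and in control 6 did. The comparisons with EAE and with naive share the iguratimod arrays.

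The p50 arrays were set against the EAE arrays. By the sex-linked genes this comparison, like that with naive, is also female against male. All 9 genes were lower on average in p50, and for 7 both p50 arrays lay below both EAE arrays, a pattern held by 27.1% of all named genes. Ly6c2 was the 1 member called lower, against 1.62% of the genes tested called lower and 1.09% called higher. Of the 7 tested, 4 had an unadjusted p under 0.05, as did 19.5% of the genes tested. Plac8 gave -1.66 ± 0.46 (limma adjusted p = 0.123), Fn1 -1.23 ± 0.62 (limma adjusted p = 0.350) and F10 -0.46 ± 0.12 (limma adjusted p = 0.116). The Fn1 difference was -2.33 in icKO and -0.14 in control. Leaving out both iguratimod arrays brought Plac8 past the threshold (limma adjusted p = 0.0278), and in a fit on the 4 p50 and EAE arrays alone Ccr2 (0.0250) and Plac8 (0.0286) passed with Ly6c2. Without the control EAE, the control p50 or the icKO p50 array Ly6c2 was not called, at -4.07 to -4.50 and adjusted p between 0.0685 and 0.112.

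The p50 arrays were also set against the naive arrays. Ly6c2 gave -0.09 ± 0.40, Ccr2 -0.04 ± 0.35 and Plac8 0.22 ± 0.46, with limma adjusted p of 0.929, 0.961 and 0.825. The Ccr2 and F10 differences changed sign when arrays were scaled to a common median. Fn1 gave 1.41 ± 0.62 (limma adjusted p = 0.274), with 1.67 in icKO and 1.16 in control. Itga4 gave 0.32 ± 0.14 (limma adjusted p = 0.282) and Cd44 gave 0.22 ± 0.14 (limma adjusted p = 0.434). For 3 of the 9, Fn1, Itga4 and Cd44, both p50 arrays lay above both naive arrays, as for 23.7% of all named genes. None was called or had an unadjusted p under 0.05 (20.5% of the genes tested), against 0.367% of genes called higher and 0.428% called lower.

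**Figure D3:**
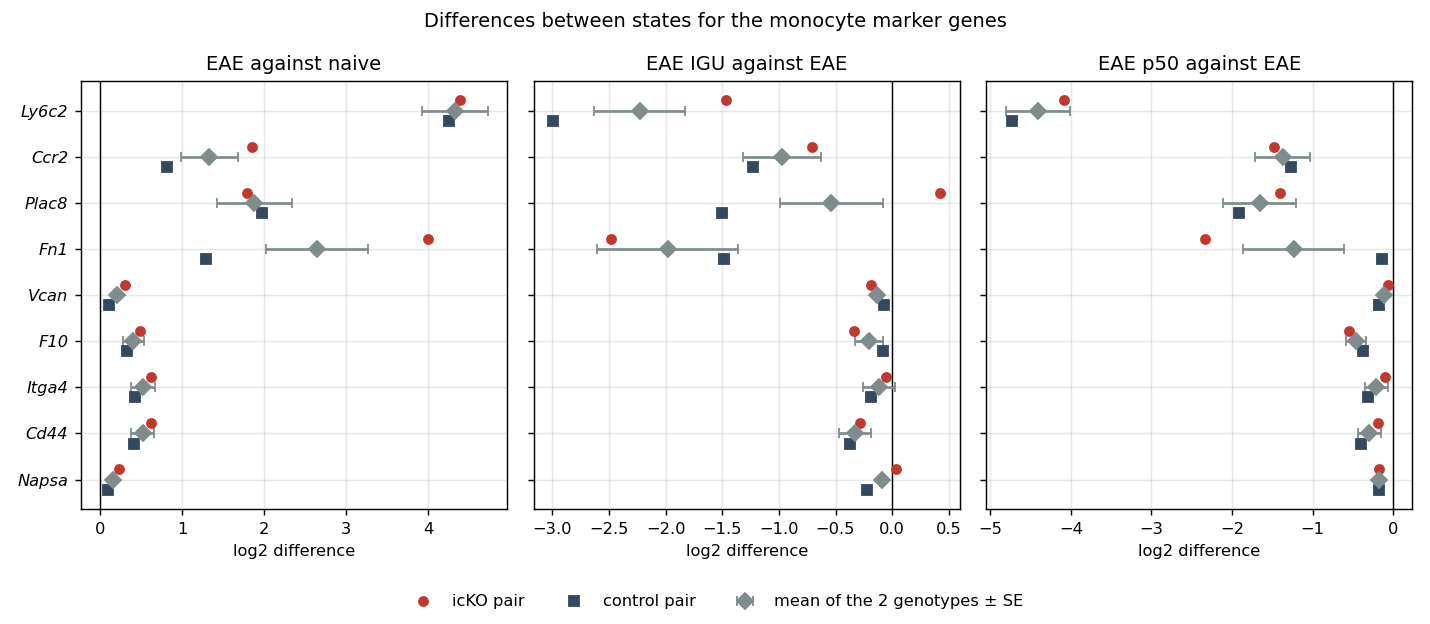
Log2 differences between states for the 9 genes, with red circles for the icKO pair of arrays, dark squares for the control pair and grey diamonds for the mean of the 2 genotypes (bars: limma SE, none for the untested Vcan and Napsa). Ly6c2 lies at 4.32 for EAE against naive and at -4.41 for p50 against EAE, and Plac8 has opposite signs in the genotypes for iguratimod against EAE.

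The genotypes were compared within each state, with 1 array against 1 array and no test. In the naive state 8 of 9 genes, and 56.8% of all named genes, were lower in icKO, by up to 0.67 log2 units for Ccr2, and none reached 2-fold, while 0.263% of genes tested were higher by 2-fold or more and 1.64% lower. In EAE 7 of 9, and 50.6% of all named genes, were higher in icKO, of which Fn1, at 2.49 log2 units or 5.60-fold, passed 2-fold upward (1.28% of genes tested, with 0.565% downward), while Plac8 (-0.75) and Ly6c2 (-0.31) were lower. With iguratimod 8 of 9, and 41.1% of all named genes, were higher in icKO, and Fn1 (1.49), Ly6c2 (1.22) and Plac8 (1.17) passed 2-fold, against 1.27% of genes tested upward and 1.96% downward. Ccr2 gave 0.89 in that state. In p50 8 of 9, and 50.7% of all named genes, were higher in icKO, the members by at most 0.34, and none reached 2-fold, against 0.291% of genes tested upward and 0.0932% downward.

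Over the 4 states limma called none of the members for genotype, nor any gene (0%), and 991 genes (5.43%) but none of the members had an unadjusted p under 0.05. Fn1 had the largest difference, 1.01 ± 0.44 (limma adjusted p = 0.882), and it was higher in icKO in EAE, under iguratimod and in p50, though not in the naive state. On average over the states all 10 immediate early genes measured were also higher in icKO (median 0.91, none of 9 tested called). Fos was at 11.77 in icKO and 8.40 in control in EAE. With iguratimod Jun (11.43 in icKO, 11.50 in control), Zfp36 and Nr4a1 were lower in icKO. All 12 neutrophil genes measured were lower in icKO on average over the states (median -0.22, none of 10 tested called). The part of these lists in the members' differences was not tested. Whether the change from naive to EAE differed between the genotypes was tested by limma with a genotype effect of its own for each of these states. Ccr2 gave 1.04 ± 0.46 (adjusted p = 0.813), Fn1 gave 2.704 ± 0.61 (adjusted p = 0.600) and Ly6c2 gave 0.13 ± 0.51. Limma called 0% of genes, and 6.22% had an unadjusted p under 0.05. The same test of the change from EAE to iguratimod gave 1.92 ± 0.31 for Plac8 (adjusted p = 0.588), 1.53 ± 0.48 for Ly6c2 (adjusted p = 0.588) and -0.9995 ± 0.37 for Fn1 (adjusted p = 0.600), with 0% called and 8.36% at an unadjusted p under 0.05.

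Further classical monocyte genes were read from a list of 22, of which 19 were measured. In EAE against naive 7 of the 18 tested rose and none fell, where 3.33% of all genes tested were called higher. They were Lyz2, Lyz1, Ms4a4c, Ifitm3, Chil3, Samhd1 and Thbs1. With any of the 4 naive or EAE arrays left out, 0 of all genes were called, so that these calls were lost. Lyz2, a lysozyme gene of myeloid cells that microglia raise too, rose by 4.43 ± 0.57 (limma adjusted p = 0.0249). Chil3, a secreted chitinase-like protein of monocytes and alternatively activated macrophages, rose by 2.24 ± 0.38 (limma adjusted p = 0.0413). The median of the 19 was 0.85, against 0.01 for the genes tested. In p50 against EAE the haptoglobin gene Hp fell by 1.40 ± 0.24 (limma adjusted p = 0.0473) and Mgst1 fell by 0.95 ± 0.15 (limma adjusted p = 0.0418), and the median of the 19 was -0.92. In iguratimod against EAE none was called and the median was -0.56. Of 11 non-classical monocyte genes measured 7 were tested and none was called between states or genotypes. In EAE against naive 7 of the 11 were higher on average and 4 lower. Cd36 lay at 10.31 in icKO and 9.27 in control in EAE, against 7.98 in icKO and 8.06 in control in the naive state. Itgal lay at 8.83 in icKO and 8.28 in control in EAE, against 7.61 in icKO and 7.72 in control in the naive state. The 11 had medians of 0.04 in EAE against naive, -0.01 in iguratimod against EAE and -0.05 in p50 against EAE.

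Neutrophil markers were brighter in EAE as well. The summed intensity of 12 neutrophil genes was 103949 in icKO and 901745 in control in EAE, against 7129 in icKO and 26856 in control in the naive state. With iguratimod it was 133698 in icKO and 41775 in control, and in p50 13716 in icKO and 6835 in control. Bright genes weigh most in such a sum. S100a8 and S100a9 were the 2 brightest of the 12 on both EAE arrays. S100a8 lay there at 15.12 in icKO and 18.88 in control, and S100a9 at 14.90 in icKO and 17.69 in control. All 12 were higher on average in EAE than in naive (none called, median 3.29). All 12 were lower in p50 than in EAE (none called, median -3.20). The defining genes S100a8, S100a9, Ngp and Retnlg lay above the median of the named probe sets on every array. The genotype order of the neutrophil sum in each of the 4 states is that of Ly6c2. In EAE that order, control above icKO, was also that of Plac8, while the other 7 members were higher in icKO. In the other states Fn1, Ccr2, Itga4, Cd44 and Napsa had the order of the neutrophil sum. Plac8 had it except in p50, Vcan except with iguratimod and F10 except in the naive state. In icKO the neutrophil sum was higher with iguratimod than in untreated EAE, as were Plac8 and Napsa, while the members' sum was lower. The part of neutrophils in the members' differences was not tested.

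The summed intensity of the members was 23474 in icKO and 23885 in control in EAE, against 2627 in icKO and 3254 in control in the naive state. Ly6c2 alone made up 67.9% of it in icKO and 82.7% in control in EAE, against 28.4% in icKO and 31.3% in control in the naive state. For the 19 further monocyte genes it was 81250 in icKO and 55940 in control in EAE, against 7616 in icKO and 9082 in control in the naive state. Lyz2 made up 71% of that sum in icKO and 62% in control in EAE, against 21.6% in icKO and 28.6% in control in the naive state. The 14 measured microglial genes summed to 717848 in icKO and 856073 in control in EAE, against 1083150 in icKO and 921419 in control in the naive state. Of these 14, 12 were lower on average in EAE, none was called, and the median was -0.45. P2ry12 gave -0.62 ± 0.23 (limma adjusted p = 0.230). Tmem119 was among the 2 that were higher on average. It lay at 10.71 in icKO and 10.90 in control in EAE, against 10.50 in icKO and 10.69 in control in the naive state. In p50 against EAE 13 of the 14 were higher and Tmem119 rose by 0.90 ± 0.16 (limma adjusted p = 0.0485). Also called in p50 against EAE were the immediate early genes Fosb, Jun and Hspa1a and the border macrophage gene Stab1, all higher, and the Y-linked genes Eif2s3y, Kdm5d and Uty, all lower. The part of these in the members' differences was not tested.

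The T cell receptor complex genes Cd3e, Cd3d and Cd3g, which define T cells, were each highest on the icKO EAE array. Cd3e lay at 9.09 in icKO and 8.21 in control in EAE, against 8.15 in icKO and 7.91 in control in the naive state. Cd3d lay at 8.40 in icKO and 8.005 in control in EAE, against 7.77 in icKO and 7.50 in control in the naive state. Cd3g was at 9.20 in icKO and 8.86 in control in EAE, against 8.76 in icKO and 8.89 in control in the naive state. The fitted EAE differences were 0.62 ± 0.23 for Cd3e (limma adjusted p = 0.222), 0.56 ± 0.14 for Cd3d (limma adjusted p = 0.0968) and 0.21 ± 0.16 for Cd3g (limma adjusted p = 0.521), against 0.52 for Itga4 and Cd44. Of the 10 T cell genes measured 5 were tested and none was called, and 5 of the 10 were higher and 5 lower on average, with Il7r at -0.31 ± 0.20. The part of T cells in the members' differences was not tested. The defining genes of oligodendrocytes (Mog) and astrocytes (Gfap, Aqp4) lay below the median of the named probe sets on every array. So did those of neurons (Rbfox3, Snap25) and B cells (Cd79a, Ms4a1). The fibroblast gene Col1a1 lay above that median on every array, and the defining genes Col3a1 and Dcn below it. In EAE against naive the medians were -0.03 for the oligodendrocyte lineage, 0.04 for astrocytes, -0.06 for neurons, -0.11 for B cells, -0.15 for fibroblasts and pericytes, 0.03 for endothelium, -0.02 for dendritic cells and -0.17 for border macrophages. Among these lists Ly6c1 and the glucose transporter gene Slc2a1, both on the endothelial list, were the genes called in EAE.

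**Figure D4:**
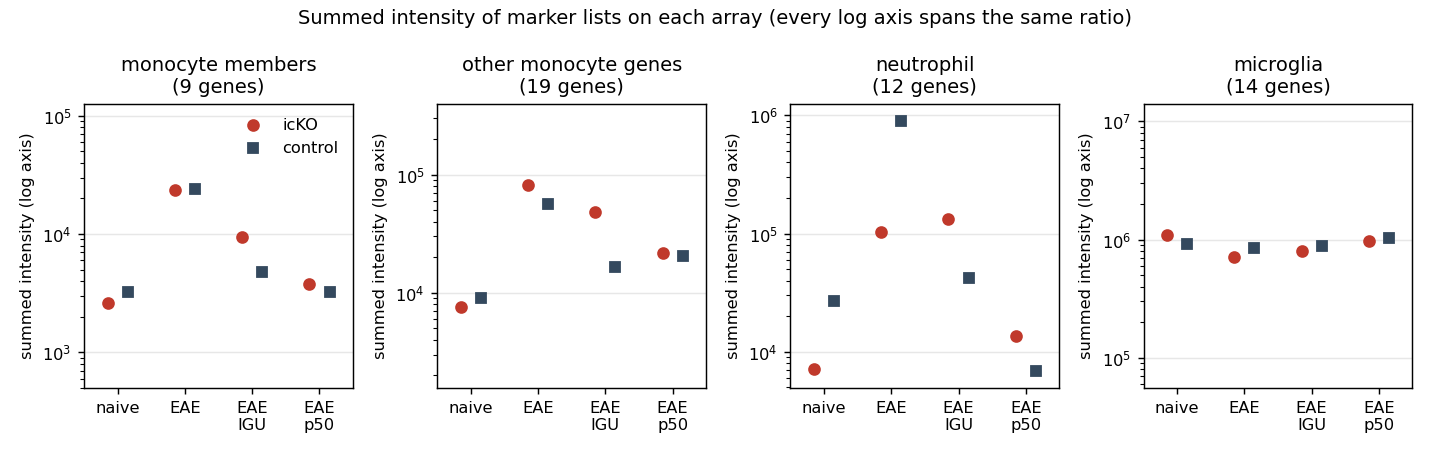
Summed intensity of the 9 members and of 3 marker lists on each array (1 panel and log axis per list, red circles icKO, dark squares control). Each panel is read across the states only, since sums of different genes are not comparable. The members' sum is 23474 in icKO and 23885 in control in EAE, against 2627 in icKO and 3254 in control in the naive state.

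Likeness to the members was measured as Pearson's r over the 8 arrays with the mean of the standardised levels of the 7 tested members, among 620 genes with a range of at least 2 log2 units. Among genes that could be named under the rule, with 3 unnamed loci ranking above the last, the 10 most like them were Lilr4b (r = 0.980), Chil3 (0.976), Gbp4 (0.974), H2-Eb1 (0.970), H2-Aa (0.969), Ms4a4c (0.968), Gbp7 (0.965), Ifi211 (0.964), Gbp2 (0.964) and Gbp8 (0.962). Lilr4b encodes an inhibitory leukocyte receptor, H2-Eb1 and H2-Aa encode MHC class II chains, the Gbp genes encode interferon-induced GTPases, and Chil3 and Ms4a4c were on the monocyte list. Without the p50 arrays r was 0.959 to 0.986 for these genes. With 8 unnamed loci ranking above the last, the 5 named genes most like Ly6c2 alone were Plbd1 (0.966), Ifitm3 (0.960), the neutrophil granule gene Ngp (0.952), Gbp2 (0.942) and Txn1 (0.942). Among the members, r with Ly6c2 was 0.929 for Plac8, 0.917 for Ccr2, 0.884 for F10, 0.811 for Cd44, 0.770 for Napsa, 0.757 for Itga4, 0.678 for Vcan and 0.616 for Fn1. Without the p50 arrays it was 0.976 for Cd44, 0.937 for Itga4, 0.925 for Plac8, 0.902 for Ccr2, 0.863 for Vcan, 0.839 for F10, 0.794 for Fn1 and 0.727 for Napsa, so that Cd44 and Itga4 then came before Plac8 and Ccr2. The arrays of 1 state share their treatment, so these values describe the arrays and are not independent observations.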

How the data were processed

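Microglial RNA was amplified and biotin-labelled with a pico kit, per the labels' protocols, and measured on 8 Affymetrix arrays, 1 for each group. The authors deposited linear intensity values (array medians 243 to 269). The submitters' processing notes name Expression Console by Affymetrix. Probe summary, normalization and detection calls are not given in the sources used here, so low signal and absence look alike, and precision is limited by the number of arrays.

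Of 65956 rows, 31216 were paired with 1 gene, 1534 with several and left out, and 33206 were unnamed here. Symbols were updated through RefSeq records (GRCm38.p6), and the brightest probe set stood for a gene. The 18244 genes that exceeded the 50th percentile of named probe sets on 1 array or more were fitted with limma 3.58.1 (R 4.3.3, lmFit and eBayes). The model was additive in state and genotype, on log2(intensity + 16), with 3 residual degrees of freedom and Benjamini-Hochberg adjustment over all genes tested, at 0.05. The p-values rest on how far state and genotype effects fail to add up between single arrays, so they measure only the spread between these arrays. Genotype differences in a change were fitted with 1 residual degree of freedom. The fit was also run on simulated data, with independent noise drawn from its own prior and no genotype effect. Such data cannot show whether the p-values hold for these arrays.

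The members and lists were chosen with earlier results of these data known, so no count over them is independent support. The text names all 9 members, list genes that were called and others of the lists by the size of their difference or as defining markers, and the 10 and 5 genes of highest correlation with the members and with Ly6c2, above the 60th percentile of highest levels. Predicted genes, small RNAs and pseudogenes are not named. Ly6g, P2ry12, Fos, Il7r, Col1a1 and the Cd3 genes were singled out after their values were seen. Promoters were aligned with Biopython 1.88. Alternatives were other filters, pseudocounts, normalizations, probe set rules, priors and thresholds, and leaving out arrays.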

Additional observations from a re-analysis of the deposited data

Results flagged for a closer look

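Some differences had opposite signs in the genotypes, each larger than the prior SD of 0.16 log2 units. For iguratimod against EAE, Plac8 gave 0.43 in icKO and -1.50 in control, and the test of that difference is given above (adjusted p = 0.588). The following were not tested for a difference between genotypes. For iguratimod-treated EAE against naive, Ccr2 gave 1.14 in icKO and -0.42 in control, and Fn1 gave 1.52 in icKO and -0.19 in control. For p50 against naive, Ly6c2 gave 0.31 in icKO and -0.48 in control, and Ccr2 gave 0.38 in icKO and -0.46 in control. Each value rests on 1 pair of arrays.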

How the results depend on the processing

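No paired analysis was possible because each group holds 1 array and the labels give no replicate numbers. In EAE against naive 1 member was called in the fit reported, with a range of 0 to 2 when 1 array was left out, 2 without both iguratimod arrays and 0 with only the 4 EAE and naive arrays. The count over all genes there was 678, with a range of 0 to 605 when 1 array was left out, 268 after quantile normalization, 231 without both p50 arrays and 0 with only the 4 arrays. In p50 against EAE the members called ranged from 0 to 2 when 1 array was left out, and were 2 without both iguratimod arrays and 3 with only the 4 arrays. Over all genes the count was 493, with a range of 65 to 426 when 1 array was left out and 943 with only the 4 arrays. In p50 against naive it was 145, with a range of 50 to 221 when 1 array was left out, 370 with a filter at the 70th percentile, 417 after quantile normalization, 404 with arrays centred on the median, 221 without both iguratimod arrays and 45 with only the 4 arrays. In iguratimod-treated EAE against naive it was 1, and 3 at the 70th percentile, 0 without both p50 arrays, 0 with only the 4 arrays and 0 to 0 when 1 array was left out. The genotype difference in the change from naive to EAE called 0 genes, against 14 at the 70th percentile and 19 with a trended and robust prior. At a threshold of 1.5-fold, 1 member passed between the genotypes in the naive state, Ccr2, which was 1.59-fold lower in icKO. In EAE 2 passed, Fn1 (5.60-fold higher in icKO) and Plac8 (1.68-fold lower). With iguratimod Ccr2 (1.85-fold higher) was added to the genes past 2-fold. The share of all genes past 1.5-fold was not computed, so these counts cannot be read as particular to the members.

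In p50 against naive Ccr2 was 0.024 and F10 0.016 after quantile normalization, and 0.036 and 0.019 with arrays centred on the median, all opposite in sign to the values reported. The genotype difference over the states was -0.14 for Ly6c2 and -0.043 for Ccr2 without both iguratimod arrays. With 1 array left out, the range was -1.38 to 0.31 for Plac8 in iguratimod against EAE, and in iguratimod-treated EAE against naive -0.21 to 0.93 for Ccr2 and -0.16 to 1.48 for Fn1. In p50 against naive it was -0.52 to 0.34 for Ly6c2, -0.61 to 0.53 for Ccr2 and -0.098 to 0.54 for Plac8. For the genotype difference it was -0.14 to 0.42 for Ly6c2, -0.043 to 0.48 for Ccr2 and -0.52 to 0.12 for Plac8. The cause of these shifts was not tested. Of all values recomputed, 1054 stayed on their side of the threshold or, for counts, within 1.5 times, 57 counts moved further, 22 values turned their direction, 8 lost a call and 8 gained one. With 1 array per group, signal over background limits what can be said of Vcan and Napsa.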
